A study of Mus musculus with 57 samples.

Results

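The central and posterior genes of the HoxA cluster, Hoxa6, Hoxa7, Hoxa9, Hoxa10, Hoxa11 and Hoxa13, occupy a stretch of 59.501 kb of mouse chromosome 6 in the mm9 build (chr6:52155500-52215000). The regions described here are all the entries of the deposited peak lists, of ChIP-seq and of ATAC-seq, that overlap this stretch. There were 104 such regions among the 591931 of all 32 lists. Of these, 93 came from 30 libraries whose group the labels give, and 20 of those 30 lists held at least 1 of them. The other 11 came from a pair of wild-type H3K4me3 libraries whose labels contradict each other, and they enter no comparison. No region reached past either end of the stretch.

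Hox genes encode homeodomain transcription factors that give cells their position along the head-to-tail axis. They lie on the chromosome in the order in which they become active, so Hoxa6 and Hoxa7 are switched on before Hoxa13, which acts in the tail end, the distal limb and the genital bud. Before activation the clusters are held by Polycomb complexes. Ring1b is the catalytic subunit of Polycomb repressive complex 1, and H3K27me3 is the histone mark laid down by Polycomb repressive complex 2. H3K4me3 marks promoters that are active or ready for activity, H3K27ac marks active promoters and enhancers, and ATAC-seq finds DNA that a transposase can reach. Wnt signalling acts through TCF/LEF factors, and Cdx factors are Wnt targets that act on central Hox genes.

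The series measured chromatin in mouse epiblast stem cells (EpiSCs, cultured from explanted epiblast of pre-streak embryos of E6.0) and in embryos, to follow how Hox genes respond to Wnt. All ChIP-seq of Ring1b and H3K27me3 used Wnt3KO EpiSCs. The unstimulated libraries of both, at 0 h, had the Wnt inhibitor IWP2 (2 µM) and comprised 2 libraries each. The stimulated libraries were taken 5 h after Wnt3a (125 ng/mL) or 72 h after CHIR99021 (3 µM), an inhibitor of the kinase GSK3 that switches on Wnt signalling inside the cell. For H3K27me3 there were also libraries at 6 h and 12 h of CHIR99021. H3K4me3 in Wnt3KO EpiSCs was measured in 1 library each before CHIR99021 and after 6 h, 12 h and 72 h of it, and H3K27ac in the same cells at the same times. The labels give no inhibitor for these H3K4me3 and H3K27ac libraries of Wnt3KO cells at 0 h, although the culture medium they describe held IWP2. H3K27ac in wild-type EpiSCs was measured in 1 library at 0 h with IWP2 and 2 libraries at 24 h of CHIR99021. ATAC-seq covered wild-type EpiSCs with IWP2 and after 48 h of CHIR99021 (1 library each), embryos of the stages E6.0 and E7.2 (2 libraries each) and the posterior part of embryos at E7.5 (1 library). A pair of input libraries came from Wnt3KO EpiSCs with IWP2. Stimulation was by removal of IWP2 together with addition of the agent, and the labels name neither the number of Wnt3KO lines nor the number of embryos per library. Nothing in the labels says that replicates came from separate cultures or embryos, so their spread may be technical.

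Lists differed in length, from 16287 to 17714 regions for H3K4me3, 10161 to 29056 for H3K27ac, 1012 to 6236 for H3K27me3, 604 to 2244 for Ring1b and 33881 to 72433 for ATAC-seq. Without read counts in the lists the depth behind a region cannot be given, and a region that is not listed may have been missed. The lists came from 7 of the authors' processing folders, treated here as batches. Epiblast markers were checked by regions at their genes. Sox2 had a region in every H3K4me3, H3K27ac and ATAC-seq list of known group. Pou5f1 had one in 3 of 4 H3K4me3 lists, absent at 72 h, and in 6 of 7 ATAC-seq lists, absent in the posterior part at E7.5. It had H3K27ac in 4 of 7 lists, and in Wnt3KO cells at 12 h alone, so the list of unstimulated Wnt3KO cells had none. Fgf5 had a region in every H3K4me3 and ATAC-seq list, H3K27ac in 5 of 7 lists, and H3K27me3 in 2 of 6, at 12 h and 72 h. T, a gene of the primitive streak and its mesoderm, had H3K27ac in 3 of 7 lists, those at 12 h in Wnt3KO cells and both at 24 h in wild-type cells. Sox17, an endoderm gene, had H3K27ac in 0 of 7 lists and H3K27me3 in 6 of 6.

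Each gene was given the DNA from its own position to that of the next gene, called its stretch below. Because all 6 genes are transcribed toward lower coordinates, a stretch holds the gene body followed by the DNA upstream of it. The positions are known only to about 1 kb. Statements by gene depend on this rule: by the nearest gene position in place of the stretch, 53 of the 104 regions go to another gene, and the main changes are given beside the results. RefSeq's annotation of another build, GRCm38.p6, places other short genes among the 6, including the lncRNA Mira between Hoxa6 and Hoxa7, the microRNA gene Mir196b between Hoxa9 and Hoxa10 and the antisense Hoxa11os between Hoxa11 and Hoxa13. ChIP-seq and ATAC-seq carry no strand, so a region cannot be assigned to a gene rather than to such a neighbour. The 93 regions fell to Hoxa7 most often, with 28, followed by 15 for Hoxa13, 14 for Hoxa11, 13 for Hoxa10, 12 for Hoxa6 and 11 for Hoxa9.

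The DNA just upstream of the genes differed widely in base composition. RefSeq's promoter table held a start for all 6 genes, with 7 starts in all since Hoxa10 has 2. Only the 250 bases before each start were used, and they could not be placed on the mm9 peaks because the builds differ. Over 32841 promoters in the table the median number of CG dinucleotides was 6. Hoxa13 had 35 and Hoxa6 had 24, the upstream start of Hoxa10 had 7 and the other Hoxa10 start 20, Hoxa11 had 13, Hoxa7 had 7 and Hoxa9 had 3. The promoters of Hoxa9 (chr6:52227371-52227620, minus strand) and Hoxa13 (chr6:52260881-52261130, minus strand) are the extremes and are shown 5′ to 3′ with each CG in capitals.
Hoxa9: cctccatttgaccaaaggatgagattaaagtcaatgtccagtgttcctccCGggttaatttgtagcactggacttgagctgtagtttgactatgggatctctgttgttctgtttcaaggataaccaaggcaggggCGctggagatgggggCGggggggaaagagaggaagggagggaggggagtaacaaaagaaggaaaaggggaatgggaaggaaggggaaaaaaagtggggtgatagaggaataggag
Hoxa13: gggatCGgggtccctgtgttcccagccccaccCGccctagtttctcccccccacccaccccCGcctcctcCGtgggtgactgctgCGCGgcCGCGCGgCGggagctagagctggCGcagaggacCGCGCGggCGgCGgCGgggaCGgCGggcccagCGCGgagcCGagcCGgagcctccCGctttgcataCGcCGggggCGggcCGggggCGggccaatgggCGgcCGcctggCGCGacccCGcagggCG
The Hoxa7 promoter is shown because, in Wnt3KO cells, its stretch alone held listed H3K4me3 before 72 h. Its capitals mark TTTATG, the core that Cdx factors bind, found at 2 places, starting 236 and 173 bases before the gene's start (GRCm38.p6, chr6:52218574-52218823, minus strand).
Hoxa7: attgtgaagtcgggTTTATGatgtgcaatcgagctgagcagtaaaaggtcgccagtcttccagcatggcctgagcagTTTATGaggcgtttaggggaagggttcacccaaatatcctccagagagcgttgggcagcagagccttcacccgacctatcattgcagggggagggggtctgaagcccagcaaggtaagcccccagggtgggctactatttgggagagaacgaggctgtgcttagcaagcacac
TTTATG or its reverse complement CATAAA occurs in 10.8% of all promoters of this length, and among the 7 starts only at Hoxa7. CTTTGA, the core of TCF/LEF sites, or its reverse complement TCAAAG occurs in 13.8% of all promoters, and among the 7 starts only at the downstream start of Hoxa10, again with 2 matches, starting 243 and 216 bases before it. These matches describe letters and not binding.

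**Figure D1:**
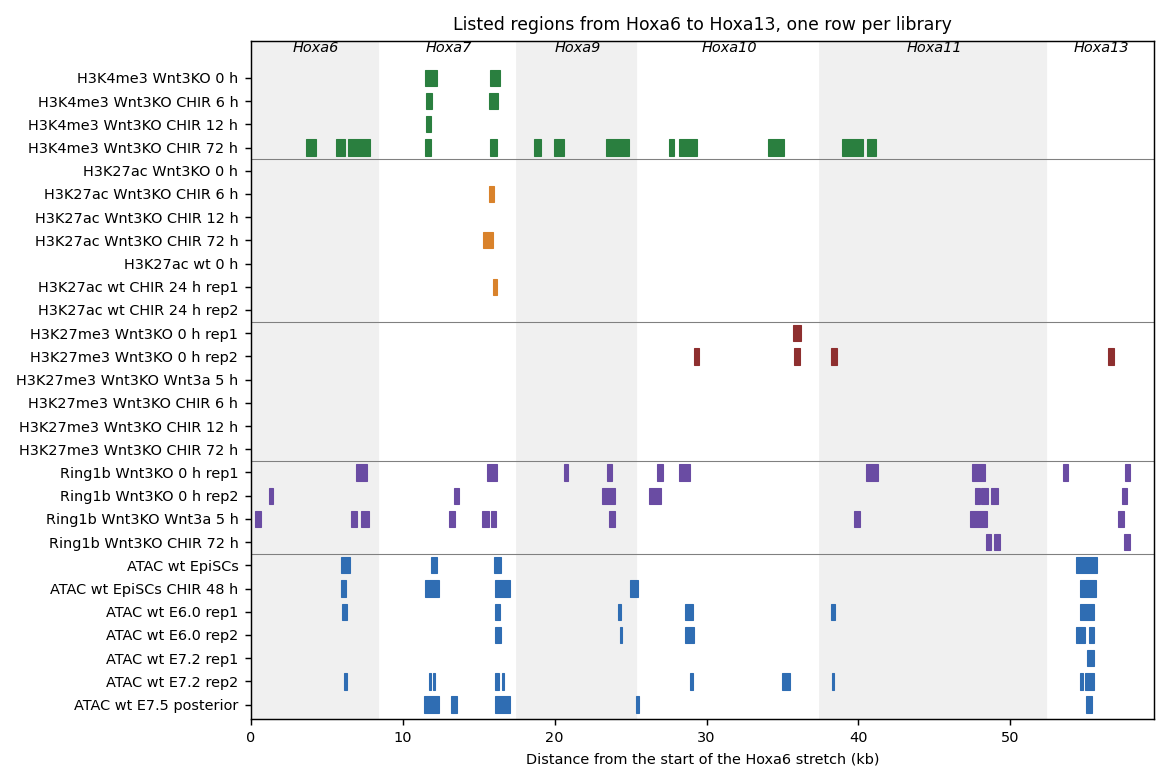
Each row is 1 library of known group and each bar 1 listed region, drawn to scale against the distance in kb from the start of the Hoxa6 stretch; shaded and white bands mark the stretches of the 6 genes. The 13 H3K4me3 regions at 72 h run from Hoxa6 into Hoxa11, the 3 Ring1b regions at 72 h lie in Hoxa11 and Hoxa13, and an open region in Hoxa13 is present in 7 of 7 ATAC-seq rows.

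H3K4me3 was limited to the Hoxa7 stretch in Wnt3KO EpiSCs until 12 h and reached from Hoxa6 into Hoxa11 at 72 h. The library at 0 h listed 2 regions that covered 2.42% of the whole stretch, that at 6 h 2 regions and 1.63%, that at 12 h 1 region and 0.615%, and that at 72 h 13 regions and 18.2%. The 72 h library was the highest by far and the other 3 were close together. Between 0 h and 72 h, which came from the same processing folder, the difference was 15.7 percentage points, larger than the 5.32 points of combined counting error. The difference from 6 h to 12 h, -1.01 points, was within its counting error of 1.30 points. From 6 h to 12 h 0 of 1 region was gained, beside 7.23% over all chromosomes, and 1 of 2 was lost, beside 5.12%. These counting errors treat neighbouring regions of 1 library as independent and hold no spread between libraries. With 1 library at each time there is no replicate check and no p-value.

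At 0 h both H3K4me3 regions lay in the Hoxa7 stretch, at chr6:52166926-52167721 with a fold enrichment of 7.56 and at chr6:52171254-52171897 with 12.0. Fold enrichment is the authors' ratio of signal over local background at a region's summit, and it is used here only within a list. Regions at the same places were listed at 6 h, and at 12 h only the one nearer to Hoxa6 remained, at chr6:52166992-52167357. Both places were listed again at 72 h. The share of the Hoxa7 stretch covered was 16.0% before stimulation, then 10.7% (6 h), 4.07% (12 h) and 9.79% (72 h), so Hoxa7 was covered most in the library before stimulation. The libraries at 6 h and 12 h came from another folder than those at 0 h and 72 h, so time and folder cannot be told apart for them. Their regions had median lengths of 930 and 936 bp over all chromosomes, against 1237 and 1230 bp at 0 h and 72 h. The H3K27ac and H3K27me3 libraries at 6 h and 12 h came from that other folder too.

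The other stretches had no listed H3K4me3 at 0 h, 6 h or 12 h, though by the nearest gene position 1 of the 2 regions at 0 h and at 6 h would be Hoxa9's. At 72 h, Hoxa9 was covered most, at 34.1% by 3 regions, and Hoxa6 followed with 31.9% by 3 regions. Hoxa10 had 3 regions and 21.1%, Hoxa11 had 2 regions and 13.0%, and Hoxa13 had 0. At 72 h the nearest gene position would give Hoxa6 1 region, and Hoxa7, Hoxa9, Hoxa10 and Hoxa11 3 each. Of the regions with the highest folds, given next by stretch, those of Hoxa6, Hoxa7, Hoxa9 and Hoxa10 would then go to the following gene. In the list at 72 h, the region with the highest fold in each stretch was chr6:52161890-52163336 for Hoxa6 (fold 4.23), chr6:52171265-52171711 for Hoxa7 (3.81), chr6:52178852-52180402 for Hoxa9 (3.67), chr6:52189549-52190578 for Hoxa10 (5.22) and chr6:52194416-52195794 for Hoxa11 (4.60). The last region on the Hoxa13 side ended at 52196643, within the Hoxa11 stretch, which left 18.357 kb up to the end of the window without listed H3K4me3. Of the 13 regions at 72 h, 11 had no overlap with the 0 h list (84.6%, exact 95% interval 54.6% to 98.1%), and over all chromosomes 6.69% of the regions at 72 h had none. Neither of the 2 regions at 0 h was lost, beside 4.83% lost over all chromosomes.

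The H3K4me3 regions covered much DNA at low folds. Their folds at 72 h ran from 2.41 to 5.22 with a median of 3.39, while the median of the whole list was 20.3. The median member stood at percentile 0.281 of fold in its own list and at percentile 14.2 of the −log10 q value. Of 44387 consecutive windows of the same length across the genome, 4 were covered at least as much as this stretch at 72 h. The regions at 72 h seldom coincided with open chromatin of wild-type cells: 4 of 13 overlapped the ATAC-seq list of unstimulated EpiSCs and 3 of 13 that of 48 h, against 94.8% and 94.0% of the H3K4me3 regions over all chromosomes. The cell lines and times of the 2 assays differ.

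**Figure D2:**
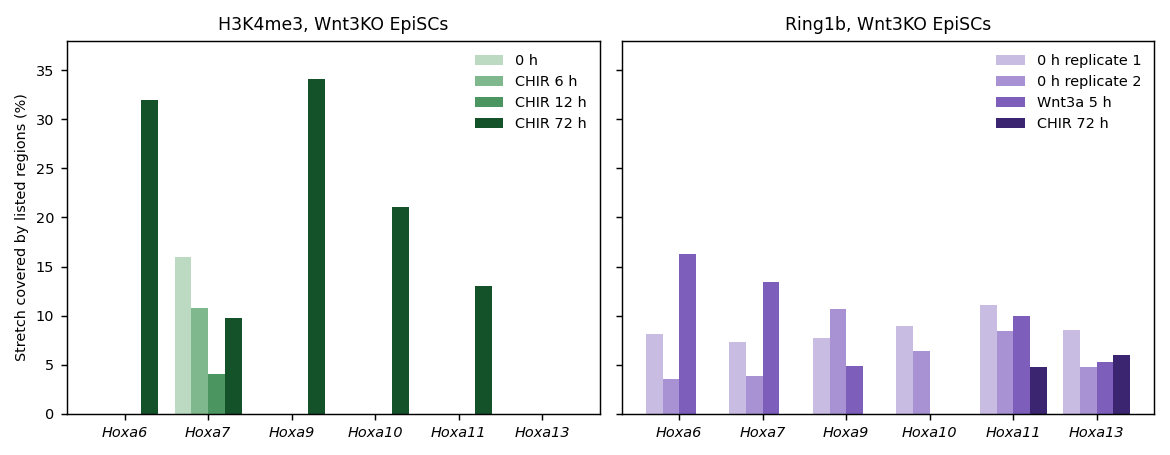
Bars give the percent of each gene's stretch covered by listed regions, for H3K4me3 (left) and Ring1b (right) in Wnt3KO EpiSCs, 1 bar per library. H3K4me3 at 72 h reached 34.1% at Hoxa9 and 0 at Hoxa13, while Ring1b at 72 h was listed at Hoxa11 (4.80%) and Hoxa13 (5.98%) alone. The Ring1b list at 72 h was the shortest, and at equal length the lists at 0 h held regions at Hoxa10 and Hoxa11 only.

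Ring1b was listed in the stretches of all 6 genes in unstimulated Wnt3KO EpiSCs. At 72 h, in a shorter list, it was listed in those of Hoxa11 and Hoxa13 alone. At 0 h the libraries listed 10 and 8 regions, covering 8.90% and 6.50% of the stretch (7.70% ± 1.70, SD, n = 2), and every stretch had at least 1 region in both. By the nearest gene position Hoxa6 would have 0 regions in the first replicate and Hoxa7 and Hoxa11 0 in the second, and all 3 regions at 72 h would be Hoxa13's. At 5 h of Wnt3a there were 10 regions and 8.14%, and at 72 h of CHIR99021 there were 3 regions and 1.91%. The value at 72 h was below both libraries at 0 h, with a difference of -5.79 points from their mean against the SD of 1.70 points, and of -4.59 points from the 0 h library of the same folder. A Ring1b region is rare elsewhere: of all consecutive windows of this length, 1.37% and 1.55% held any at 0 h, 2.60% after Wnt3a and 0.885% at 72 h. The list at 72 h was itself short, with 604 regions against 1605 and 1783 at 0 h. When each list was limited to its 604 strongest regions, the difference turned to 0.224 points higher at 72 h, because 1 and 2 regions remained in the lists at 0 h and 3 at 72 h. Those at 0 h lay at Hoxa11 in the first replicate and at Hoxa10 and Hoxa11 in the second. At equal length the lists at 0 h therefore did not reach all 6 genes either.

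The 3 regions at 72 h were chr6:52203928-52204230 (fold 3.84) and chr6:52204415-52204831 (fold 5.00) in the Hoxa11 stretch and chr6:52212995-52213413 (fold 4.92) in the Hoxa13 stretch. Each overlapped a region at 0 h, so 0 of 3 were gained, beside 22.2% over all chromosomes. All 3 overlapped the second replicate at 0 h and 1 of 3 the first, beside 71.0% and 60.9% of the 72 h list over all chromosomes. The gap between the last H3K4me3 region and the first Ring1b region at 72 h was 7.285 kb, and 0 of 13 H3K4me3 regions overlapped the Ring1b list of that time, beside 1.79% over all chromosomes. Of the regions at 0 h, 9 of 10 in the first replicate and 5 of 8 in the second were not listed at 72 h. Over all chromosomes these shares were 78.5% and 78.3%, so the loss in the window was near that of the whole lists.

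The overlap of Ring1b at 0 h with H3K4me3 at 72 h differed between the Ring1b replicates. Of the 10 Ring1b regions in the first replicate, 6 overlapped a H3K4me3 region at 72 h, beside 50.9% over all chromosomes, and of the 8 in the second replicate 1 did, beside 53.3%. The replicates themselves shared 4 of 10 and 5 of 8 regions in the window, against 70.2% and 65.5% over all chromosomes. At Hoxa7 the first replicate listed chr6:52171046-52171702 (fold 3.19), over the H3K4me3 region there, and the second chr6:52168863-52169212 (fold 2.75). At Hoxa10 the strongest regions of the replicates were chr6:52183693-52184414 (fold 2.85) and chr6:52181708-52182477 (fold 3.52). At Hoxa11 they were chr6:52196025-52196810 (fold 3.74) and chr6:52204235-52204690 (fold 3.82).

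After 5 h of Wnt3a the difference in Ring1b coverage from 0 h, 0.434 points, was smaller than the SD between the replicates, and in the shared folder it was -0.765 points. By gene the values spread. Hoxa6 had 3 regions and 16.3% covered after Wnt3a, against 8.08% and 3.53% at 0 h, and Hoxa7 had 3 regions and 13.4%, against 7.30% and 3.89%. Hoxa10 had no listed region after Wnt3a, against 8.93% and 6.42% at 0 h. These values depend on the rule for stretches. By the nearest gene position Hoxa6 would have 1 region after Wnt3a, against 0 and 1 at 0 h. Hoxa7 would have 2, against 1 and 0, and Hoxa10 would have 1, against 3 and 2. Of the 10 regions after Wnt3a, 2 overlapped neither list at 0 h, beside 34.1% over all chromosomes. Of the regions at 0 h, 6 of 10 and 3 of 8 were not listed after Wnt3a, beside 18.6% and 28.6%. The replicates at 0 h overlapped each other in only 4 of 10 and 5 of 8 regions, so mismatches were as frequent without Wnt3a. When overlap required 50% of the smaller region, 6 of 10 were gained, and 6 of 10 and 5 of 8 were lost.

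H3K27me3 was sparse. In unstimulated Wnt3KO EpiSCs the replicates listed 1 and 4 regions, covering 0.916% and 2.57% (1.75% ± 1.17, SD, n = 2). The libraries at 5 h of Wnt3a and at 6 h, 12 h and 72 h of CHIR99021 listed 0. Windows of this length with any H3K27me3 region made up 4.31% and 5.82% of the genome at 0 h, 1.30% after Wnt3a, and 2.97%, 3.63% and 3.99% at the later times of CHIR99021. The place shared by both replicates was in the Hoxa10 stretch, at chr6:52191208-52191752 (fold 2.42) in the first and chr6:52191259-52191669 (fold 2.40) in the second. The nearest gene position would make this shared place Hoxa11's in both replicates. The second replicate also had chr6:52184659-52185023 (fold 2.41) in the Hoxa10 stretch, chr6:52193712-52194085 (fold 2.33) at Hoxa11 and chr6:52211955-52212336 (fold 2.71) at Hoxa13. None of these regions overlapped a Ring1b region at 0 h (0 of 4 and 0 of 1), while over all chromosomes 21.3% and 21.5% of the second replicate and 28.9% and 26.5% of the first overlapped a Ring1b list. The difference from 0 h, -1.75 points on average both at 72 h and after Wnt3a, exceeded the SD of 1.17 points. In the shared folders it was -2.57 points at 72 h and -0.916 points after Wnt3a. It was within that SD for both without the second replicate at 0 h (-0.916 points) and with regions of a −log10 q of at least 5 (-0.628 points). All 5 regions at 0 h were lost at 72 h, beside 63.6% and 70.2% of the lists over all chromosomes, and after Wnt3a, beside 80.2% and 87.1%. With 0 regions listed later, none was gained, while over all chromosomes 27.5% of the list at 72 h and 5.53% of that after Wnt3a were gained. The window held no H3K27me3 region in any library once the lists were limited to their 1012 strongest regions.

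H3K27ac appeared at a single place, in the Hoxa7 stretch. By the nearest gene position all 3 regions would be Hoxa9's. In Wnt3KO cells the regions were chr6:52171187-52171486 at 6 h (fold 6.55) and chr6:52170808-52171422 at 72 h (fold 3.92), with none at 0 h or 12 h. In wild-type cells the first replicate at 24 h listed chr6:52171409-52171708 (fold 3.24), and the second replicate and the library at 0 h listed none. Coverage at 24 h was 0.504% and 0%, and the mean difference from 0 h, 0.252 points, was smaller than the SD of 0.357 points between the replicates. The library at 0 h came from another folder than those at 24 h, so the effects of time and of folder cannot be told apart here or in the shares gained below. With the window widened by 2 kb on each side, the difference was 1.66 points. In Wnt3KO cells the difference between 72 h and 0 h, 1.03 points, was larger than that SD but rested on 1 region, and such a gain applied to 17.4% of the list at 72 h over all chromosomes. Lost regions made up 30.4% of the Wnt3KO list at 0 h, which held 0 in the window. In the wild-type lists 64.7% of the regions of the first replicate and 62.8% of the second were gained over all chromosomes, and 14.5% of the list at 0 h were lost.

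The Hoxa7 region was the most often marked place of the window. Regions that overlapped were joined across libraries into 25 sites, of which 7 were seen in 1 library. The Hoxa7 site at chr6:52170719-52172537 was listed in 14 of 28 antibody and ATAC-seq libraries and in 4 assays: H3K4me3 in 3, H3K27ac in 3, Ring1b in 2 and ATAC-seq in 6. A second Hoxa7 site, chr6:52166861-52167852, was listed in 8 libraries, 4 of H3K4me3 and 4 of ATAC-seq. The site upstream of Hoxa6, chr6:52161065-52163336, was listed in 7, and the Hoxa10 site chr6:52183693-52185023 in 6 libraries and 4 assays, all but H3K27ac.

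Open chromatin in EpiSCs lay in the stretches of Hoxa6, Hoxa7 and Hoxa13, and after stimulation also in that of Hoxa9. By the nearest gene position Hoxa6 would have 0 regions in both lists and Hoxa9 would have 1 in both. The region new at 48 h would then be Hoxa10's. In unstimulated wild-type EpiSCs there were 4 ATAC-seq regions, 2 of them at Hoxa7, which covered 4.71% of the stretch. At 48 h of CHIR99021 all 4 were listed again, with 1 more at chr6:52180490-52180982 (fold 6.03), at the border between the Hoxa9 and Hoxa10 stretches, and coverage was 6.31%. The difference, 1.59 points, was larger than the SD of 0.642 points between the E6.0 libraries. It was smaller than the SD of 2.44 points between the E7.2 libraries. Neither pair is of EpiSCs, and the EpiSC lists came from different folders. With the window widened by 2 kb the difference was 0.863 points. The 1 gained region of 5 stands beside 27.5% gained over all chromosomes, and 0 of 4 lost beside 33.8%. A region at the same border, chr6:52180872-52181041 (fold 3.40), was listed in the posterior part at E7.5 and in no other embryo library.

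By stretch, Hoxa7 and Hoxa13 changed places in the order of open DNA. In EpiSCs the share of the Hoxa7 stretch in open regions was 9.50% at 0 h and 21.1% at 48 h, while that of Hoxa13 was 19.7% and 14.8%. In embryos the Hoxa7 stretch had 3.39% and 3.93% in the E6.0 libraries, 0% and 7.81% in the E7.2 libraries, and 26.1% in the posterior part at E7.5. The Hoxa13 stretch had 12.7% and 13.1% (E6.0), 6.66% and 11% (E7.2), and 5.73% (E7.5). The E7.5 value of Hoxa7 lay above all 4 earlier embryo libraries and that of Hoxa13 below them, with 1 library at E7.5 and no test. By the nearest gene position the E7.5 list would have 1 region at Hoxa7 and 2 at Hoxa9. The earlier embryo libraries are not labelled as a posterior part. Stage and part therefore cannot be told apart here or in the comparison of E7.5 with E7.2 below. In the list of the posterior part at E7.5, the Hoxa7 region with the highest fold was chr6:52171568-52172537, with a fold of 8.57, at percentile 67.6 of that list. The regions there at E6.0, chr6:52171579-52171883 with 5.29 and chr6:52171581-52171934 with 5.02, were at percentiles 24.4 and 34.3 of their own lists, which are longer. With every ATAC-seq list limited to its 33881 strongest regions, Hoxa7 regions remained in the posterior part at E7.5 and in no list of E6.0 or E7.2. Hoxa7 regions also remained in both EpiSC lists, at 0 h and at 48 h. The difference among the embryo lists rests on 1 library at E7.5, and a change in rank was not tested.

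The open site of Hoxa13, chr6:52209811-52211189, was listed in 7 of 7 ATAC-seq libraries and in no H3K4me3, H3K27ac, H3K27me3 or Ring1b library of known group. It was the strongest region of the window in unstimulated EpiSCs, with a fold of 12.5. At 48 h its region chr6:52210117-52211152 had a fold of 9.83, behind the Hoxa7 region chr6:52171537-52172534 with 12.1. Ring1b lay beside it, at chr6:52208986-52209285 on the one side in the first replicate at 0 h, and on the other side at the site chr6:52212623-52213413 in 4 of 4 Ring1b libraries.

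Over the whole stretch, embryos at E6.0 had 6 and 5 ATAC-seq regions covering 4.29% and 3.38% (3.83% ± 0.642, SD, n = 2). At E7.2 there were 1 and 10 regions covering 0.783% and 4.24% (2.51% ± 2.44, SD, n = 2), and in the posterior part at E7.5 there were 5 and 4.91%. In coverage, 1 E7.2 library lay below both at E6.0 and the other between them, for a difference of -1.32 points with p = 0.667 in an exact two-sided permutation test, for which 0.333 is the smallest p possible. Within folders it was -3.50 and 0.860 points, and without the first replicate at E7.2, whose list is the shortest of the ATAC-seq lists, 0.407 points. The difference from E7.2 to E7.5, 2.40 points, was within the SD at E7.2 of 2.44 points, and was 4.13 points in the shared folder and 0.674 points without the first replicate at E7.2. Gained regions at E7.2 numbered 0 of 1 and 4 of 10, beside 5.10% and 28.4% over all chromosomes, and lost ones 1 of 6 and 1 of 5, beside 22.5% and 26.5%. At E7.5, 2 of 5 were gained, beside 24.6%, and 0 of 1 and 5 of 10 of E7.2 were lost, beside 29.9% and 56.8%. At Hoxa10 an open region at chr6:52190499-52191027 (fold 5.03) was listed at E7.2 only, in the second replicate.

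**Figure D3:**
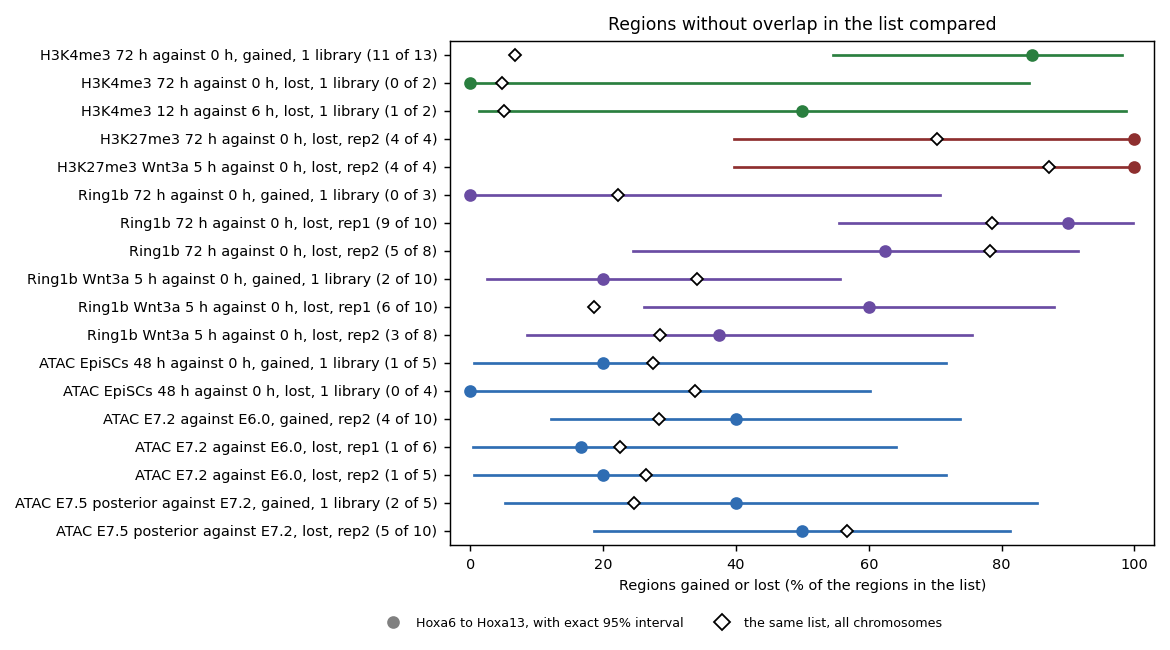
Filled points give the percent of a list's regions in the stretch from Hoxa6 to Hoxa13 that have no overlap in the list compared, lines their exact 95% intervals, and open diamonds the same percent over all chromosomes; lists with under 2 regions in the window are not drawn. H3K4me3 gained at 72 h (84.6% against 6.69%) and Ring1b of the first replicate lost after Wnt3a (60.0% against 18.6%) are the rows where the diamond lies outside the interval. The intervals cover counting error only and treat neighbouring regions of 1 library as independent, so this is not a test. Of the 10 Ring1b regions in that first replicate, only 4 overlapped the other replicate at 0 h.

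Other Hox stretches gave the comparison for position and time. Hoxb5 to Hoxb13 spans 124.001 kb and Hoxd8 to Hoxd13 48.001 kb, against 59.501 kb here, and both were placed from general knowledge of mm9. Coverage in percent is therefore compared over unlike lengths. The H3K4me3 regions at 72 h numbered 13 here, 20 from Hoxb5 to Hoxb13 and 16 from Hoxd8 to Hoxd13. H3K4me3 at 72 h covered 18.2% from Hoxa6 to Hoxa13, 17.0% from Hoxb5 to Hoxb13 and 26.4% from Hoxd8 to Hoxd13. At 12 h it covered 0.615% here, the lowest of the 3, against 3.73% and 3.83%. At 6 h it covered 1.63% here, 1.52% from Hoxb5 to Hoxb13 and 3.88% from Hoxd8 to Hoxd13. Ring1b at 72 h was listed 3 times here and 0 times in both other stretches, each of which had Ring1b regions in both libraries at 0 h. These differences between stretches were not tested, since each rests on 1 library.

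**Figure D4:**
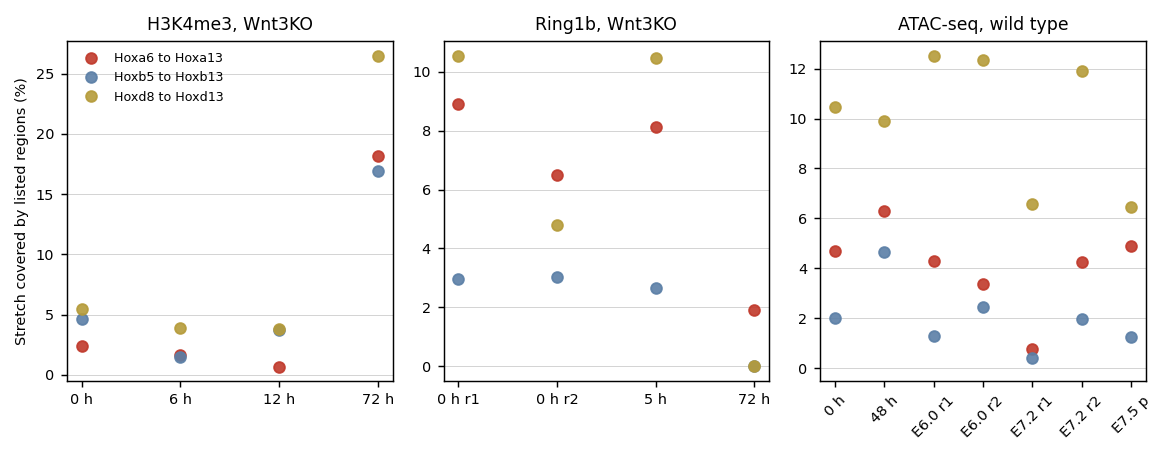
Points give the percent of a Hox stretch covered by listed regions in each library (r1 and r2 are replicates, p the posterior part), for H3K4me3, Ring1b and ATAC-seq, with 3 stretches in colour. In the Ring1b panel at 72 h the points of the other 2 stretches lie on each other at 0, below that of Hoxa6 to Hoxa13 at 1.91%. The stretches differ in length.

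At the ends of the window, the nearest members inside were a Ring1b region 0.267 kb from the Hoxa6 end, after Wnt3a (fold 2.70), and a Ring1b region 1.587 kb from the Hoxa13 end, at 72 h (fold 4.92). Just outside were an ATAC-seq region at 48 h, 0.695 kb beyond the Hoxa6 end (fold 8.49), and a Ring1b region at 72 h, 1.515 kb beyond the Hoxa13 end (fold 4.35). The input libraries listed 0 regions in the window.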

How the data were processed

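ChIP-seq and ATAC-seq peak lists of 32 samples were used, 1 list per library, and 25 4C samples were not analysed here. The submitters' processing notes name Bowtie 1.1.0, Bowtie2 2.1.0, cutadapt 1.8.1, SAMtools 0.1.19 and MACS2 2.1.0 with mm9; for 4 lists no tool is named. Peak names show, per the file headers and entries, a threshold of 1e-05, an extension of 300 bp for ChIP-seq and a local background of 100 kb. The deposited fold enrichment is the ratio over local background given by the authors' peak caller. The −log10 p and −log10 q values were deposited by the authors as well, and the deposited score was not used. No list held a −log10 p under 5.00.

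Regions of a list were merged, which removed 0. A region belongs to the gene in whose stretch its summit lies; the rule for names was that every region in the window may be printed, those with coordinates mainly as the highest fold per mark and gene. The members and lists were chosen with earlier results of these data known. Coverage is the percent of bases in listed regions, and overlap means at least 1 bp. Differences were set against the SD of the nearest replicate pair or, for H3K4me3, the combined Poisson error of the region counts. Intervals for shares are exact (Clopper-Pearson, 95%) and cover counting error only. The stages E6.0 and E7.2 were compared with an exact permutation test. Alternatives were a −log10 q of at least 5, lists limited to equal length, other windows, merging, overlaps and gene borders, libraries left out and, added after seeing the data, single processing folders. Replicate numbers are not said to pair samples. The computations were tested on simulated data and used Python 3.11.15, numpy 2.4.6, scipy 1.17.1 and matplotlib 3.10.9. Results on 1 other stretch are not reported here. Upstream sequences came from RefSeq (GRCm38.p6).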

Additional observations from a re-analysis of the deposited data

Results flagged for a closer look

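A pair of wild-type H3K4me3 libraries, whose title and treatment label contradict each other, listed regions in the window, where the input libraries listed 0. The library titled with 0 h had 3 regions covering 3.17%, 2 in the Hoxa7 stretch and 1 at Hoxa13 (chr6:52209978-52210312, fold 4.59). The library titled with 72 h had 8 regions covering 9.23%, of which 1 lay at Hoxa6, 2 at Hoxa7, 2 at Hoxa9, 1 at Hoxa10, 1 at Hoxa11 and 1 at Hoxa13 (chr6:52209907-52210263, fold 4.63). The Hoxa13 regions lie over the open site seen in 7 of 7 ATAC-seq libraries, where no H3K4me3 library of known group listed a region. Of the 13 regions at 72 h in Wnt3KO cells, 2 overlapped the one library and 6 the other, beside 96.2% and 96.1% of that list over all chromosomes. The condition of these libraries was not inferred.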

How the results depend on the processing

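Of the coverage differences under alternatives, 60 kept their direction or stayed within the spread used, 5 moved beyond it and 3 reversed. The spread was that between replicates or, for H3K4me3, the combined counting error. The H3K4me3 difference between 72 h and 0 h ranged from 13.0 to 18.6 points over its alternatives. With lists of equal length, the Ring1b difference at 72 h was 0.224 points and after Wnt3a -1.69 points, both H3K27me3 differences were 0, and regions gained or lost in all comparisons numbered 25 in place of 63. With the window 2 kb longer on each side, the wild-type H3K27ac difference was 1.66 points and the ATAC-seq difference at 48 h 0.863 points. Leaving out 1 library at a time, the difference between E7.2 and E6.0 ranged from -3.05 to 0.407 points, the latter without the first replicate at E7.2, and within 1 of its 2 folders it was 0.860 points. With replicate numbers as pairs, the replicate block gave a mean difference from E6.0 to E7.2 of -1.32 points, with p = 1 in an exact sign-flip test whose smallest p is 0.5. Moving gene borders 1 kb up or down reassigned 3 or 8 of 104 regions, and the nearest gene position reassigned 53. The cause was not tested except that equal length removes weak regions by construction. Depth is unknown, so no limit can be set for regions not listed.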
